A study of Mus musculus with 6 samples.

Results

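The transcription factors that set up and maintain the trophectoderm were followed in mouse embryonic stem (ES) cells given vitamin C. The members were chosen by name from knowledge of this lineage, with earlier results of these data known. They were Tead4, Cdx2, Eomes, Elf5, Ets2, Tfap2c, Tfap2a, Gata3, Gata2 and Hand1. All 10 were measured, each by 1 probe set that carried only its symbol, among 19938 genes tested. The series comprised 6 one-colour Affymetrix arrays. Of these, 3 carried RNA of cells grown for 72 hours with vitamin C, supplied as L-ascorbic acid 2-phosphate at 200 μg/ml, and 3 carried RNA of untreated cells. Both groups were Oct4-GiP ES cells on gelatin in N2B27 medium with LIF at 1000 U/ml, the MEK inhibitor PD0325901 at 1 μM and the GSK3β inhibitor CHIR99021 at 3 μM, so kinase inhibition was shared by all 6 arrays. The submitters describe the cultures of this reporter line as biological triplicates.

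The trophectoderm is the outer epithelium of the blastocyst, which forms the trophoblast of the placenta, whereas ES cells derive from the inner cell mass. In outer cells the coactivator YAP enters the nucleus and acts through TEAD4 to raise Cdx2 and Gata3, and CDX2 opposes the ES cell factor OCT4. Elf5 stands at the border between the lineages. Its promoter is methylated and silent in ES cells and unmethylated in trophoblast stem cells, where ELF5 sustains Cdx2 and Eomes. The title of the series names demethylation of DNA by Tet enzymes under vitamin C. The arrays measured RNA only, so the methylation state of Elf5 in these cultures is not known from them.

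RefSeq promoter windows (GRCm38.p6, 250 bases before to 50 bases after an annotated start) matched 7 of the 10 members, all but Tead4, Tfap2c and Hand1. The windows of Elf5 are shown because methylation of its promoter is the known barrier between ES and trophoblast cells, and those of Gata3 and the first start of Gata2 because these were the members that passed the test below. Whether either Elf5 window holds the region known to be methylated in ES cells was not established here. Capitals mark CpG, the dinucleotide that carries DNA methylation. The Elf5 windows lie at chr2:103411848-103412147 and chr2:103423818-103424117 on the plus strand, that of Gata3 at chr2:9878551-9878850 on the minus strand and that of Gata2 at chr6:88193641-88193940 on the plus strand.
Elf5, first start: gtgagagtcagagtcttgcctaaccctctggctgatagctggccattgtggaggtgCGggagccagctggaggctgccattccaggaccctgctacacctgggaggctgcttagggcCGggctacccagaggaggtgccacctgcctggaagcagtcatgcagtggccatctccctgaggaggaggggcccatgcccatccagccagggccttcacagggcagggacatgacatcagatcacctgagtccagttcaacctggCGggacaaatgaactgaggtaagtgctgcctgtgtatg
Elf5, second start: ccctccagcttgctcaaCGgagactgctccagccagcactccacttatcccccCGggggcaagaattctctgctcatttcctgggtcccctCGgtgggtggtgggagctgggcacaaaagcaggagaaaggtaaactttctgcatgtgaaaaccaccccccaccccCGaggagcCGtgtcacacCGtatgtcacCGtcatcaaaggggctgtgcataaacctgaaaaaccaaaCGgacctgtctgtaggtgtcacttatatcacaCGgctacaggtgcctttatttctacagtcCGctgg
Gata3: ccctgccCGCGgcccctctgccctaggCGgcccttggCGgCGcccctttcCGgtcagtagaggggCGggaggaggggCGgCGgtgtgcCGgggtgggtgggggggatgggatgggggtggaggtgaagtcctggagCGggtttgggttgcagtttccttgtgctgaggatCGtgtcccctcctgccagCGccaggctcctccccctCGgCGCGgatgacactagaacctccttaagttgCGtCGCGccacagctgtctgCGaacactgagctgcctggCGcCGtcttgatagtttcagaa
Gata2, first start: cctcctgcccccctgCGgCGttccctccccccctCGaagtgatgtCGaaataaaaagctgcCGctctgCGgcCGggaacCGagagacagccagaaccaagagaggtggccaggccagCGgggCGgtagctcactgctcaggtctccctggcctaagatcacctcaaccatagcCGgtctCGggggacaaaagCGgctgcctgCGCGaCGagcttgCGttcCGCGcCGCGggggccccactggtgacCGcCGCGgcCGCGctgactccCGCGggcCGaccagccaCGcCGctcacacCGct

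The first Elf5 window held 3 CpGs, an observed-to-expected ratio of 0.110, and the second held 10, a ratio of 0.442. The median over 32851 RefSeq promoter windows was 7 CpGs and a ratio of 0.384. Gata3 had 22 CpGs, the first Gata2 window 32 and the second Gata2 window 29. Among the other members with a window, Ets2 had 30 CpGs, Cdx2 18, Eomes 10 and Tfap2a 11 and 15 at its 2 starts. The first Elf5 window had the lowest CpG ratio of the 10 member windows and was the only one under the median ratio of all windows. Dazl, a germ-cell gene known to be repressed by promoter methylation, had 28 CpGs in the same kind of window. Letters of the TEAD motif GGAATG, searched on both strands, stood in 2 of the 10 windows (the first of Elf5 and the second of Gata2) and in 14.7% of all windows. The AP-2 motif GCCNNNGGC stood in 3 of the 10 (Cdx2, Gata3 and the second of Gata2) and in 16.6% of all, and the GATA motif AGATAA in none of the 10 and in 11.2% of all. No motif contains another, and a match is a description of the window only.

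The array values are RMA-processed log2 signals. A value is a level relative to other arrays for the same probe set, and levels of different genes are not compared. Array medians lay between 5.52 and 5.60 and lower quartiles between 3.99 and 4.05. Arrays of the same group correlated at 0.995 to 0.996 across genes and arrays of different groups at 0.989 to 0.990. Mean signals of markers of the ES cell label follow. They do not test the label, since every probe set has a value on every array and detection calls were not used. Pou5f1 (which encodes OCT4) averaged 11.14 with vitamin C and 11.26 untreated, Nanog 11.84 with vitamin C and 11.55 untreated, and Sox2 10.06 with vitamin C and 9.92 untreated. A probe set's brightness is not its gene's abundance, so these signals are a description and no rank. Each difference is the vitamin C mean minus the untreated mean on the log2 scale, with the standard error (SE) from limma's moderated test, and a gene passed at a Benjamini-Hochberg adjusted p under 0.05 over all genes.

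With vitamin C, 1 of the 10 trophectoderm factors rose (Gata3), 1 fell (Gata2) and 8 did not pass. Over all genes 13.2% passed, 5.75% higher and 7.40% lower, so 2 of 10 members stood near that background. The median member difference was -0.00064, and that of all genes was 0.012. Of the members, 5 had a higher mean with vitamin C and 5 a lower one, and 5 differed by less than 0.1 in size. The groups did not overlap for 3 members (Gata3, Gata2 and Tfap2c), against 35.0% of all genes. Every member's 95% interval lay within a 2-fold change either way, and that of every member except Gata2 lay within 1.5-fold. In such bulk RNA, fewer cells of a type and less RNA per cell cannot be told apart.

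**Figure D1:**
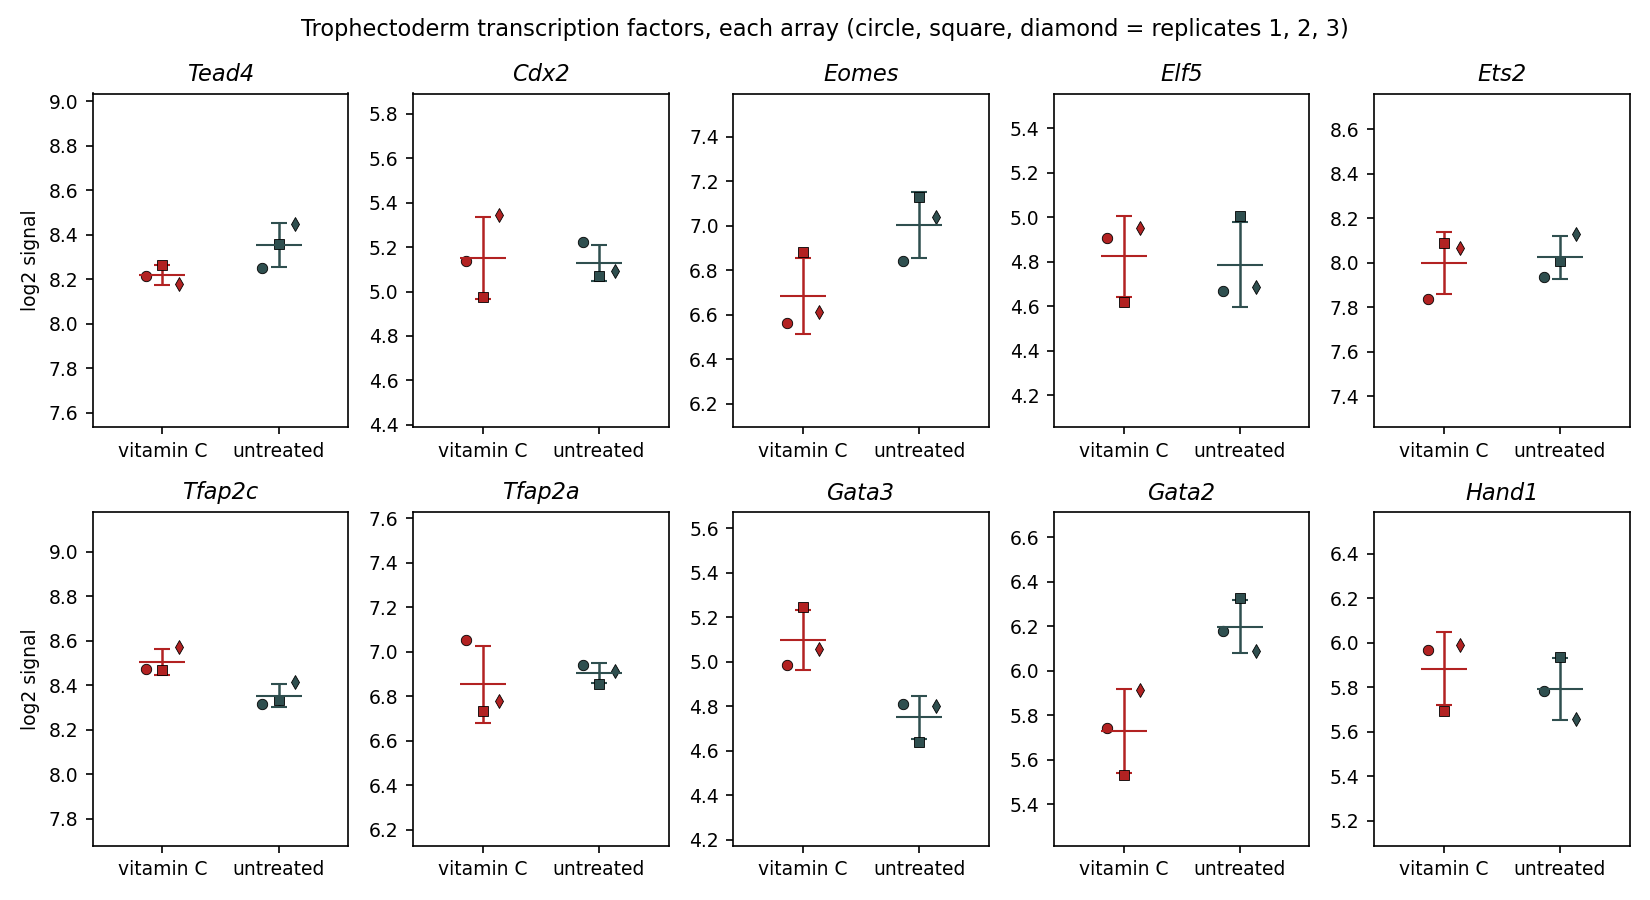
Log2 signal (y axis, spanning 1.5 log2 units in every panel) of each trophectoderm factor in the 3 vitamin C arrays (left) and the 3 untreated arrays (right). Points are arrays, long bars the means and whiskers the SD; the groups are apart for Gata3, Gata2 and Tfap2c and overlap for the other 7 factors.

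Elf5, the ETS-family factor known to be gated by methylation, showed no difference larger than the spread between arrays. It had 4.90, 4.62 and 4.95 in the vitamin C arrays, against 4.67, 5.01 and 4.69 in the untreated arrays. The lowest value of all was in vitamin C replicate 2 and the highest in untreated replicate 2, so each group spanned most of the range of the other. The means were 4.83 ± 0.18 with vitamin C and 4.79 ± 0.19 untreated (SD, n = 3 each), a log2 difference of 0.04 ± 0.12 (SE, limma adjusted p = 0.873). The 95% interval of this fit to all 6 arrays ran from -0.25 to 0.33, which is 0.840-fold to 1.26-fold, so a rise above 1.26-fold lay outside it. All 6 values lay below the median of their array and above its lower quartile, and since dim signals are in general compressed on arrays, a change near the background would appear smaller here. The sign of the Elf5 difference was not settled, as it was -0.04 with the arrays quantile-normalized over genes and -0.03 with the trend against mean signal subtracted. With 1 array left out the difference ran from -0.03 to 0.15, and it was largest without vitamin C replicate 2 (0.14) or untreated replicate 2 (0.15).

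Germline genes known to be held off by promoter methylation were measured on the same arrays. Of 10 such genes, listed with their earlier results in these data known, 9 rose, none fell and Ddx4 did not pass (0.13, limma adjusted p = 0.438). Over all genes 13.2% passed, 5.75% higher and 7.40% lower. The median difference of the germline genes was 1.01. At an unadjusted p under 0.05, which 29.0% of all genes reached (13.7% higher and 15.3% lower), the limma test also gave 9 of them higher and 0 lower. Dazl, which encodes a germ-cell regulator of translation, averaged 10.23 ± 0.040 with vitamin C and 8.02 ± 0.11 untreated (SD, n = 3 each), a log2 difference of 2.21 with a 95% interval from 2.03 to 2.38. Asz1, of the piRNA pathway, was higher by 3.46, Taf7l, a TFIID component of germ cells, by 1.70 and the testis tubulin gene Tuba3a, which has a close copy, by 0.84. The Elf5 interval lay wholly below that of Dazl, but Dazl was listed with its earlier result known, so the choice of gene set this contrast. The difference between the 2 genes was not itself tested, and methylation was not measured at either.

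The factors upstream of Elf5 or in a loop with it did not pass either, and Eomes had the largest difference among Tead4, Cdx2, Eomes and Ets2. Tead4, the DNA-binding partner of YAP that starts the trophectoderm programme, had 8.21, 8.27 and 8.18 with vitamin C, against 8.25, 8.36 and 8.45 untreated. Its highest vitamin C value exceeded the lowest untreated value, and the difference was -0.13 ± 0.07 (SE, limma adjusted p = 0.266). Cdx2, the homeobox gene that defines the lineage, had 5.14, 4.98 and 5.34 with vitamin C, against 5.22, 5.07 and 5.09 untreated. The vitamin C arrays held both the lowest and the highest Cdx2 value, and the difference was 0.02 ± 0.10 (SE, limma adjusted p = 0.900), with a 95% interval from -0.21 to 0.26. Like that of Elf5, its sign was not settled, since it was -0.05 with quantile normalization.

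Eomes, a T-box factor needed for trophoblast development, had 6.56, 6.88 and 6.61 with vitamin C, against 6.84, 7.13 and 7.04 untreated. Only vitamin C replicate 2 reached into the untreated range, where it passed untreated replicate 1. The means were 6.68 ± 0.17 with vitamin C and 7.00 ± 0.15 untreated (SD, n = 3 each), a difference of -0.32 ± 0.11 (SE), with a 95% interval from -0.58 to -0.06. Its unadjusted p was 0.0220 and its limma adjusted p 0.104, so it did not pass (adjusted p from 0.0380 to 0.257 over all settings tried, under 0.05 with a trended and robust spread model only). Ets2, an ETS factor needed in trophoblast, had 7.84, 8.09 and 8.07 with vitamin C, against 7.94, 8.01 and 8.13 untreated. The groups overlapped over most of their range, and the difference was -0.03 ± 0.09 (SE, limma adjusted p = 0.881), with quantile normalization giving 0.02.

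The GATA factors differed in opposite directions. Gata3, a zinc-finger factor that acts beside Cdx2 downstream of TEAD4, had 4.98, 5.24 and 5.06 with vitamin C, against 4.81, 4.64 and 4.80 untreated. Every vitamin C value lay above every untreated value. The means were 5.10 ± 0.13 with vitamin C and 4.75 ± 0.096 untreated (SD, n = 3 each), a log2 difference of 0.35 ± 0.09 (SE), which is 1.27-fold (limma adjusted p = 0.0437). This call did not survive the removal of any single array (adjusted p from 0.0576 to 0.123) and was lost with quantile normalization (0.136) and with the trend against mean signal subtracted (0.0886), while the Gata3 difference stayed between 0.26 and 0.40. Like Elf5, Gata3 lay below the median of every array.

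Gata2, its relative that drives hormone genes in trophoblast giant cells, had 5.74, 5.53 and 5.91 with vitamin C, against 6.18, 6.32 and 6.09 untreated. Every vitamin C value lay below every untreated value. The means were 5.73 ± 0.19 with vitamin C and 6.20 ± 0.12 untreated (SD, n = 3 each), a log2 difference of -0.47 ± 0.11 (SE), which is 1.38-fold lower with vitamin C (limma adjusted p = 0.0320). The call held without vitamin C replicate 3 (adjusted p = 0.0296) and was lost without any other array (0.0527 to 0.0943). The difference stayed between -0.56 and -0.37 when arrays were left out. Both GATA calls were lost when all 35557 probe sets were tested together (0.0983 for Gata3 and 0.0836 for Gata2) and in a test without moderation of the spread (0.123 for each).

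Neither AP-2 factor passed, and the groups were apart for Tfap2c and overlapped for Tfap2a. Tfap2c, an early trophectoderm factor, had 8.47, 8.47 and 8.57 with vitamin C, against 8.31, 8.33 and 8.41 untreated. The vitamin C values all lay above the untreated ones, but by a small step, and the difference of 0.15 ± 0.06 (SE, limma adjusted p = 0.173) did not pass. Its 95% interval ran from -0.00035 to 0.30. Tfap2a had 7.05, 6.73 and 6.78 with vitamin C, against 6.94, 6.86 and 6.92 untreated. The vitamin C arrays held its highest and its lowest values, and the difference was -0.05 ± 0.09 (SE, limma adjusted p = 0.770).

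Hand1, a basic helix-loop-helix factor of trophoblast giant cell differentiation, had 5.97, 5.70 and 5.99 with vitamin C, against 5.78, 5.94 and 5.66 untreated. The groups overlapped, and the difference was 0.09 ± 0.11 (SE, limma adjusted p = 0.623) with a 95% interval from -0.16 to 0.34. As a whole, the mean log2 signal over the 10 factors was 6.49, 6.45 and 6.55 in the vitamin C arrays and 6.49, 6.57 and 6.53 in the untreated arrays. These ranges overlapped.

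**Figure D2:**
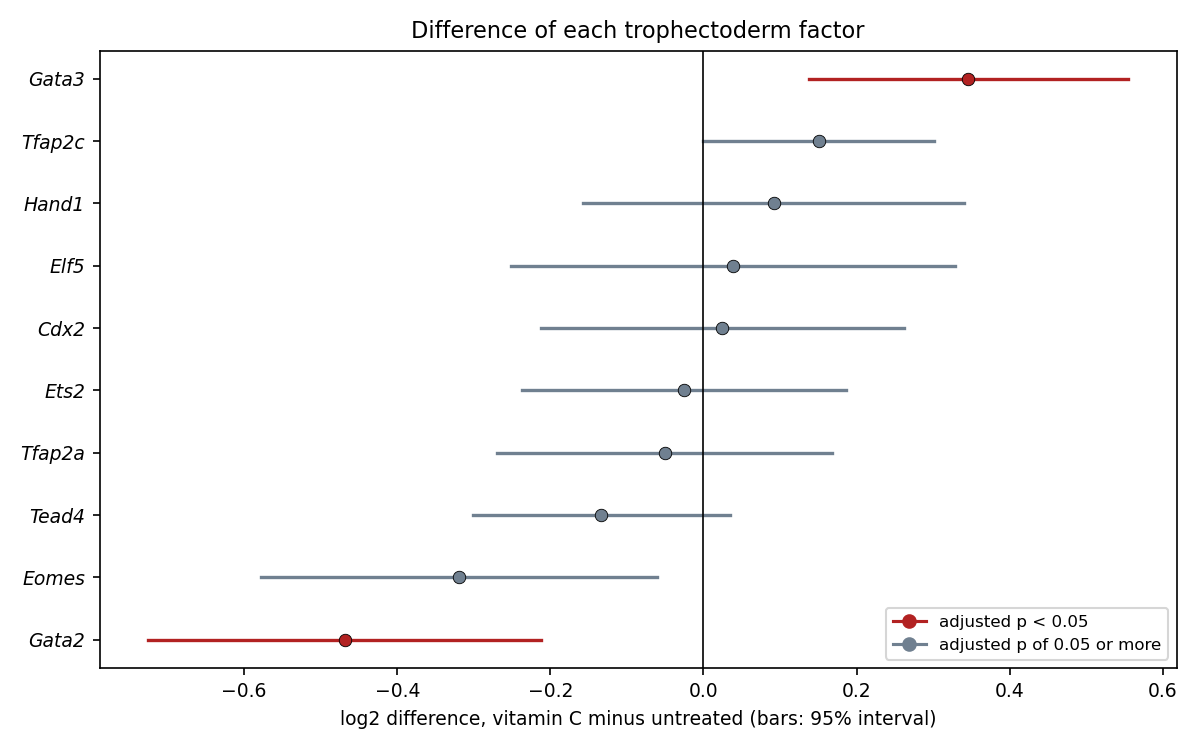
Log2 difference, vitamin C minus untreated (x axis), of each of the 10 trophectoderm factors (y axis), with 95% intervals as bars. Gata3 (0.35) and Gata2 (-0.47), in red, passed the limma test over all genes; Eomes (-0.32) did not pass although its interval leaves out 0.

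The difference of each factor was set beside its measured relatives of the same gene family. These relatives and the lists that follow were chosen with earlier results of these data known, so the shares called in them are descriptions and no independent test. Of 21 relatives 5 rose, 1 fell and 15 did not pass, with a median difference of 0.12, against the 13.2% of all genes that passed. Among them Tead1, which binds DNA with YAP as Tead4 does, averaged 9.21 ± 0.085 with vitamin C and 8.76 ± 0.12 untreated (SD, n = 3 each), higher by 0.44 ± 0.08 (SE, limma adjusted p = 0.0149). Tead2 (-0.19, limma adjusted p = 0.141) and Tead3 (-0.02, limma adjusted p = 0.872) did not pass. Of the GATA relatives, Gata6, a primitive endoderm regulator, rose by 0.39 ± 0.07 (SE), and Gata1, Gata4 and Gata5 did not pass.

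Among the ETS relatives of Elf5, the epithelial factor Elf3 fell by 0.45 on the log2 scale (SE 0.09, limma adjusted p = 0.0169) and Elf1 rose by 0.33 ± 0.07 (SE, limma adjusted p = 0.0176). Elf2, Elf4 and Ehf did not pass. Tfap2b, a relative of Tfap2a and Tfap2c, averaged 5.50 ± 0.36 with vitamin C and 4.78 ± 0.052 untreated (SD, n = 3 each), a rise of 0.72 (limma adjusted p = 0.0279). That call held without vitamin C replicate 2 (0.00646) and was lost without any other array (0.0533 to 0.0902). Tbx21, a T-box relative of Eomes, rose by 0.36 (limma adjusted p = 0.0238), and its relative Tbr1 differed by -0.01. Neither Cdx1 nor Cdx4, the relatives of Cdx2, passed, nor did Hand2 or Ets1. The calls of Tead1 and Gata6 held with any 1 array left out. That of Elf3 was lost without untreated replicate 2 (0.0578), and those of Elf1 and Tbx21 were lost without vitamin C replicate 1 or 3 or untreated replicate 2 or 3 (0.0530 to 0.0619 for Elf1, 0.0662 to 0.0772 for Tbx21).

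The Hippo pathway restrains YAP and so decides whether TEAD4 is active in outer cells. Of 17 measured genes of this pathway, Tead1 alone passed, against 13.2% of all genes, and the median difference was 0.08. At an unadjusted p under 0.05 the limma test gave 6 higher and 1 lower, against 29.0% of all genes in either direction. With a trended and robust spread model 6 genes rose and none fell, against 20.8% of all genes called in either direction and 8.68% higher. Yap1, the coactivator, had a mean of 8.91 ± 0.12 with vitamin C and 8.73 ± 0.057 untreated (SD, n = 3 each). Its difference of 0.18 ± 0.08 (SE, limma adjusted p = 0.168) did not pass, except with that spread model (0.0447). Wwtr1, which encodes the related coactivator TAZ, differed by -0.04 ± 0.09 (SE, limma adjusted p = 0.783).

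Markers of the trophectoderm epithelium and of trophoblast stem cells did not shift together. Among these 16 genes there were 3 rises and 4 falls, and 9 missed the threshold, with a median difference of 0.04. The share that passed in either direction was 43.8%, against 13.2% of all genes. The genes that fell were the simple-epithelial keratins Krt8, Krt18 and Krt7 and the galectin gene Lgals3, and those that rose were the water channel gene Aqp3, the P-cadherin gene Cdh3 and Klf5, a factor of trophectoderm and of ES cells. Krt8 averaged 7.25 ± 0.030 with vitamin C and 7.83 ± 0.12 untreated (SD, n = 3 each), a fall that passed without any single array (limma adjusted p from 0.00573 to 0.0200). Krt7 and Krt18 differed by -0.36 and -0.35, and Aqp3 by 0.42. The call of Aqp3 also held with any 1 array left out (0.0235 to 0.0444). The calls of Krt7, Krt18, Lgals3, Cdh3 and Klf5 were each lost with at least 4 of the 6 arrays left out in turn, at adjusted p up to 0.0708, 0.0836, 0.113, 0.127 and 0.113. Plet1 (0.12, limma adjusted p = 0.333), Tinagl1 (-0.18, limma adjusted p = 0.189) and Ezr (0.06, limma adjusted p = 0.596), known like Elf5 from differences in methylation between ES and trophoblast stem cells, did not pass. Fgfr2, the receptor through which FGF4 maintains trophoblast stem cells, had a mean of 3.94 with vitamin C and 3.92 untreated, close to the lower quartile of the arrays, and differed by 0.01 ± 0.08 (SE, limma adjusted p = 0.935).

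Of 14 measured genes of differentiated trophoblast, 1 rose, 1 fell and 12 did not pass, so the share called (14.3%) was near the 13.2% of all genes. The imprinted gene Phlda2, a restraint on placental growth, fell to 7.03 ± 0.12 with vitamin C, against 8.58 ± 0.089 untreated (SD, n = 3 each), by 1.55 on the log2 scale (limma adjusted p = 0.000143). Peg10, an imprinted retrotransposon-derived gene needed in the placenta, averaged 8.95 ± 0.054 with vitamin C and 8.38 ± 0.14 untreated (SD, n = 3 each), higher by 0.57 (limma adjusted p = 0.00617). Ascl2, a factor of spongiotrophoblast, differed by -0.53 ± 0.22 (SE, limma adjusted p = 0.153), and Syna, a syncytin gene, by -0.56 ± 0.16 (SE, limma adjusted p = 0.0642). Neither passed, although the arrays of the groups did not overlap for either gene, as was so for 35.0% of all genes. Ascl2 had 5.44, 5.32 and 4.60 with vitamin C, against 5.50, 5.61 and 5.85 untreated, and without vitamin C replicate 3, its lowest array, the difference was -0.27. Syna passed in 4 of the 18 alternatives, with a trended and robust spread model (0.0126), with dim genes left out (0.0393), without vitamin C replicate 1 (0.0302) and at a threshold of 0.10.

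**Figure D3:**
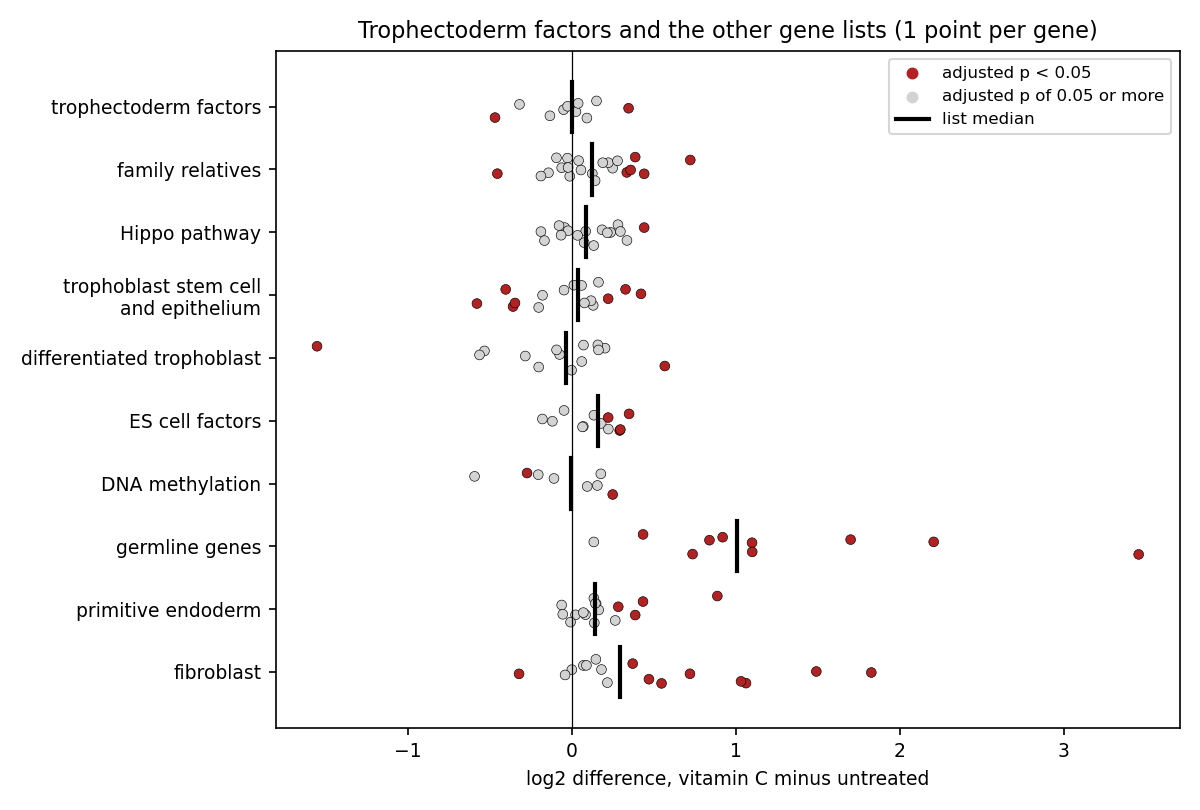
Log2 difference, vitamin C minus untreated (x axis), of each measured gene of the trophectoderm factors and of the 9 other lists (y axis). Points are genes, red where the limma adjusted p is under 0.05, and black bars are list medians; the median of the trophectoderm factors lies at 0 to 2 decimals, and that of the germline genes at 1.01.

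Factors of the ES cell state were measured alongside, some of which, such as Esrrb and Klf5, trophoblast stem cells or trophectoderm share. Klf5 is counted here and among the trophoblast markers above. Of 12 ES cell factors 4 rose (Tbx3, Nanog, Zfp42 and Klf5), none fell and 8 did not pass. That is 33.3% called, against 13.2% of all genes. At an unadjusted limma p under 0.05 there were 6 higher and 0 lower, against 13.7% and 15.3% of all genes. The call of Tbx3 held with any 1 array left out, whereas those of Nanog, Zfp42 and Klf5 were lost with 4, 5 and all 6 of the arrays left out in turn (up to 0.0577, 0.0688 and 0.113). Pou5f1, whose product represses Cdx2, differed by -0.12 ± 0.06 (SE, limma adjusted p = 0.235), Sox2 by 0.13 and Sall4 by 0.07, none of which passed. With a trended and robust spread model Pou5f1 (0.0125) and Sox2 (0.0191) did pass. Esrrb, a factor shared by ES and trophoblast stem cells, differed by -0.05 ± 0.06 (SE, limma adjusted p = 0.640).

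Of 8 measured genes that write or remove DNA methylation, Tet1 rose by 0.25 and Uhrf1, which guides DNMT1 to newly copied DNA, fell by 0.27. These calls made up 25% of this short list, against 13.2% of all genes. Each call was lost when arrays were left out, for Tet1 in all 6 cases (adjusted p from 0.0601 to 0.0932) and for Uhrf1 in 5 of them (up to 0.116). Dnmt1 (-0.11), Dnmt3a (-0.21), Dnmt3b (0.16) and Tet2 (0.18) did not pass, and neither did Dnmt3l, a cofactor of de novo methylation (-0.59 ± 0.17 SE, limma adjusted p = 0.0567). Dnmt3l passed in 5 of the 18 alternatives, with a trended and robust spread model (0.0102), with dim genes left out (0.0344), with the trend against mean signal subtracted (0.0458), with quantile normalization (0.0476) and at a threshold of 0.10.

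Some markers of other cell types differed between the groups. Among 16 fibroblast markers, also listed with earlier results of these data known, there were 8 rises and 1 fall. That is 56.2% of the list, against 13.2% of all genes. Their mean log2 signal was 5.99 to 6.02 in the vitamin C arrays, against 5.47 to 5.56 in the untreated arrays. Acta2 (1.83), Lox (1.49), Dcn (1.06) and Tagln (1.03) differed most among those named. The gene that fell was Pdgfrb (-0.32, limma adjusted p = 0.0179), and Col5a1, Fn1, Thy1, Twist1, Postn, Fap and S100a4 did not pass. Of 16 primitive endoderm markers 4 rose (Dab2, Sparc, Gata6 and Col4a1) and none fell, so 25% passed, against 13.2% of all genes. The other 12, among them Gata4, Sox17, Sox7, Pdgfra, Foxa2 and Hnf4a, did not pass. At an unadjusted limma p under 0.05 there were 5 higher and 0 lower, against 13.7% and 15.3% of all genes. The call of Col4a1 was lost without any array other than untreated replicate 1 (0.0949 to 0.127). The mean signal of the list was 5.93 to 5.94 with vitamin C and 5.73 to 5.79 untreated. Whether the cultures held any such cells was not tested, nor was any part of theirs in the values of Gata3 and Gata2.

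**Figure D4:**
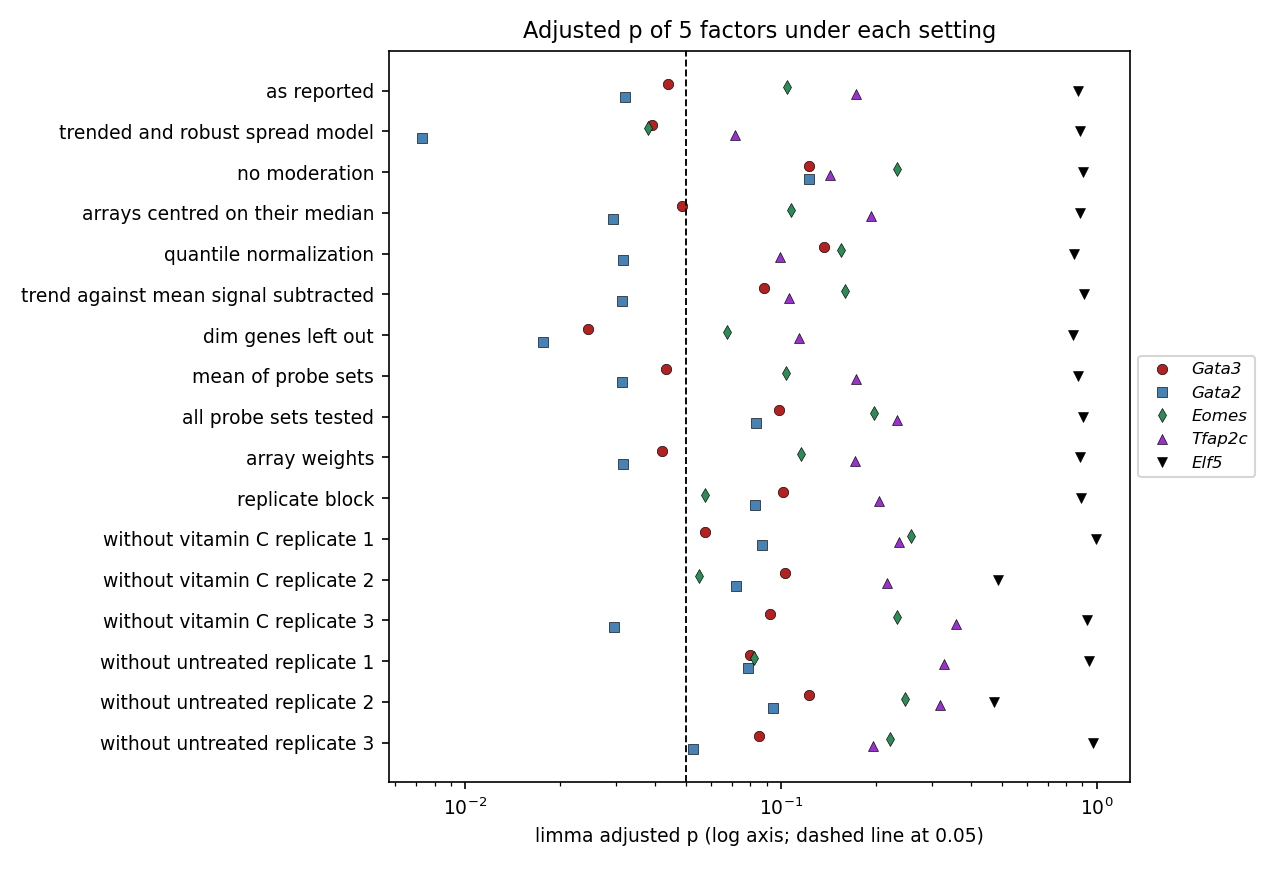
Limma adjusted p (x axis, log scale, dashed line at 0.05) of Gata3, Gata2, Eomes, Tfap2c and Elf5 under each setting (y axis). Elf5 lay between 0.473 and 0.997 throughout, whereas Gata2 and Gata3 lay on both sides of the line.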

How the data were processed

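RNA of 3 vitamin C and 3 untreated cultures of ES cells was hybridised to 6 arrays. Per the labels' protocols, total RNA was column-purified with DNase digestion, amplified with Ovation Pico WTA and biotin-labelled. The deposited log2 scale was inferred from the range of the values (0.952 to 13.9), and RMA is named in the submitters' processing notes. The software and version behind it and a genome build were not given in the sources used here. Detection calls were not used. The number of arrays limits the precision.

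Of 35557 probe sets, 21789 had 1 gene symbol, 1621 several and 12147 were unnamed here. By gene ID, 21698 of the 21789 matched a RefSeq table (GRCm38.p6, used for names), and no symbol changed. For the 999 genes with several probe sets the one with the highest mean was used. Groups came from the titles and were compared with limma 3.58.1 under R 4.3.3 (functions lmFit and eBayes, defaults, no covariate), with Benjamini-Hochberg adjustment over 19938 genes. The script was tested on simulated data. Figures were drawn with matplotlib 3.10.9.

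The members and the 9 other lists were chosen with earlier results of these data known. Named genes were the 10 members, 26 genes set by name and, per list, the called genes with the smallest p (at most 4). Tbx21, Tfap2b, Lgals3, Cdh3, Dnmt3l and Syna, and other list members mentioned, were chosen after their values were seen. Alternatives changed the spread model, normalization, dim-gene filter, probe-set handling, array weights, threshold, replicate block and arrays included. The replicate numbers are not said to pair the cultures, so the arrays were treated as unpaired. Deviations of same-numbered arrays of the groups correlated at 0.052, 0.0096 and -0.024, and those of different-numbered arrays at -0.067 to 0.055.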

Additional observations from a re-analysis of the deposited data

How the results depend on the processing

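The count of trophectoderm factors called (2) was 0 without moderation, with all probe sets tested, at an adjusted p under 0.01 and with the replicate number as a block, and 1 (Gata2) with quantile normalization or with the trend against mean signal subtracted. With 1 array left out it lay between 0 and 1. With limma, 3 of the 10 had an unadjusted p under 0.05 in the fit as reported, against 29.0% of all genes. Over all genes 2623 were called, against 4151 with a trended and robust spread model, 1545 without moderation, 901 at an adjusted p under 0.01, 4096 at an adjusted p under 0.10 and 1723 with the replicate block, and 1483 to 1721 with 1 array left out. The cause of these changes was not tested beyond the fewer arrays or the other threshold that some settings imply. The block lost the calls of Gata2 (0.0829) and Gata3 (0.102), and the arrays share only a number.

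The sign of small differences turned. With quantile normalization the difference was -0.0445 for Elf5, -0.0531 for Cdx2, 0.00875 for Tfap2a, 0.0231 for Ets2 and -0.0574 for Fgfr2. With the trend subtracted it was -0.0296 for Elf5, -0.0381 for Cdx2, 0.0153 for Ets2 and -0.0432 for Fgfr2. With 1 array left out the difference ran from -0.0257 to 0.148 for Elf5, from -0.0707 to 0.113 for Cdx2, from -0.149 to 0.0104 for Tfap2a, from -0.0718 to 0.0535 for Ets2, from -0.128 to 0.0153 for Wwtr1, from -0.0659 to 0.0229 for Tead3 and from -0.0334 to 0.0623 for Fgfr2. None of these passed in either direction. Fgfr2 and Lox have no value with dim genes left out. The 10 members under 18 alternatives gave 180 values, of which 142 kept direction and side of the threshold, 21 lost a call, 1 gained a call (Eomes) and 16 turned sign. Counts of called genes ranged from 0 to 7 for the relatives, 0 to 6 for the Hippo list, 1 to 7 for trophoblast stem cell and epithelium, 2 to 3 for differentiated trophoblast, 1 to 8 for ES cell factors, 0 to 3 for DNA methylation, 2 to 4 for primitive endoderm, 7 to 9 for fibroblast and stayed at 9 for the germline genes.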

Other observations

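Within the vitamin C group, replicate 2 was the lowest array for 6 of the 10 trophectoderm factors (Elf5, Cdx2, Hand1, Tfap2a, Tfap2c and Gata2) and the highest for the other 4, where it was lowest for 32.8% and highest for 33.6% of all genes tested. In the untreated group, replicate 2 was the highest for 4 factors (Elf5, Eomes, Gata2 and Hand1) and the lowest for 3, where it was highest for 34.4% and lowest for 32.8% of all genes. Without vitamin C replicate 2 the Elf5 difference was 0.14, and without untreated replicate 2 it was 0.15 (limma adjusted p = 0.485 and 0.473).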
